A study of Homo sapiens with 6 samples.

Results

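PDCD4, TMEM87B, TMEM65, NEK7, LBR and KLHL15 are 6 genes whose signal was higher with either of 2 siRNAs against MYEOV than with a control siRNA. They were selected on these same array values, because both siRNA groups lay well above the control, so their distance from the control is a description here and carries no test. Each of the 6 symbols had 1 row in the platform annotation, which makes 6 rows of the 16098 that carry a gene symbol and 6 genes of the 14884 named. All 6 passed the filter on dim genes, a mean log2 signal of at least 5.45 over the 6 arrays, which left 7442 genes.

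The arrays hold total RNA of A549, an established human lung cancer cell line grown in DMEM with serum, collected 48 hours after siRNA transfection with Lipofectamine RNAiMAX. The groups were MYEOV siRNA 1 (siMYEOV #1), MYEOV siRNA 2 (siMYEOV #2) and control siRNA (siNC), with 2 arrays in each, and the labels do not say whether the 2 come from separate transfections. Every p-value given here therefore rests on array-to-array spread that could be technical. Values are log2 signals after RMA (a background correction, normalization and summary of probes), and differences are on that log2 scale. Of 5 epithelial markers, 4 had a named row, with KRT18 between 11.79 and 12.09, EPCAM between 6.92 and 7.27, KRT8 between 6.5 and 7.0 and KRT19 between 5.30 and 5.75 over the arrays. Of 5 fibroblast markers, 2 had a row and both were below the filter, DCN at 1.6 to 1.9 and LUM at 2.58 to 3.98. The endothelial markers PECAM1 and VWF, 2 of 3, were also below it, at 2.22 to 3.08 and 3.93 to 4.29. The only leukocyte marker of 4 with a row, CD68, which other cells also express, was at 9.12 to 9.49. No array of untransfected cells and no second control siRNA was analysed here, and the sources used here give no siRNA sequences. A gain of these transcripts with the MYEOV siRNAs and a loss with the control siRNA therefore cannot be told apart in any value below. In RNA of whole cultures, fewer cells of a kind and less RNA per cell cannot be told apart either.

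The 6 genes belong to different compartments and pathways. PDCD4 binds the RNA helicase eIF4A and holds back translation initiation. It is removed after phosphorylation by S6 kinase through the ubiquitin ligase SCF with BTRC, and its mRNA is a well-known target of the microRNA miR-21. NEK7 is a kinase of mitotic spindle assembly and cytokinesis that also binds the inflammasome sensor NLRP3. LBR spans the inner nuclear membrane, where it holds B-type lamins and heterochromatin protein HP1, and its membrane domain is a sterol reductase of cholesterol synthesis. KLHL15 is a Kelch adaptor that brings substrates to the ubiquitin ligase CUL3. TMEM65 is a protein of the inner mitochondrial membrane, and TMEM87B a Golgi membrane protein with a close paralog, TMEM87A.

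MYEOV, the targeted gene, named for its overexpression in myeloma, had signals of 5.34 and 5.19 with siRNA 1, 5.23 and 4.70 with siRNA 2, and 6.20 and 6.50 with control siRNA. Every array of the MYEOV siRNAs lay below both control arrays. Its means of 5.27 with siRNA 1 and 4.96 with siRNA 2 are below the filter value of 5.45, which MYEOV passed through its control mean of 6.35.

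PDCD4, the translation inhibitor, had signals of 8.83 and 8.73 with siRNA 1, 8.77 and 8.90 with siRNA 2, and 7.64 and 7.43 with control siRNA. The 4 arrays of the MYEOV siRNAs spanned 0.18 and lay at least 1.09 above the higher control array. The difference from control was 1.24 ± 0.09 (SE, n = 2 arrays per group) with siRNA 1 and 1.30 ± 0.09 with siRNA 2, or 2.37-fold and 2.47-fold. TMEM87B, the Golgi membrane protein, had signals of 7.67 and 7.61 with siRNA 1, 7.70 and 7.70 with siRNA 2, and 6.58 and 6.24 with control siRNA. Its 4 siRNA arrays lay within 0.09 of each other, a narrower range than the 0.33 between the 2 control arrays. The difference was 1.23 ± 0.11 with siRNA 1 and 1.29 ± 0.11 with siRNA 2, or 2.35-fold and 2.45-fold.

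TMEM65, the mitochondrial membrane protein, had signals of 8.67 and 8.79 with siRNA 1, 8.99 and 9.02 with siRNA 2, and 7.74 and 7.40 with control siRNA. Both siRNA 2 arrays were above both siRNA 1 arrays, and all 4 were above the control arrays. The difference from control was 1.16 ± 0.12 with siRNA 1 and 1.44 ± 0.12 with siRNA 2, the widest of the 6 genes for siRNA 2, at 2.70-fold. NEK7, the mitotic kinase, had signals of 6.94 and 6.93 with siRNA 1, 7.07 and 7.03 with siRNA 2, and 5.83 and 5.88 with control siRNA. Its replicate arrays differed by no more than 0.05 in any group. The difference was 1.08 ± 0.07 with siRNA 1 and 1.20 ± 0.07 with siRNA 2, or 2.12-fold and 2.30-fold.

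LBR, the lamin B receptor, had signals of 9.11 and 9.19 with siRNA 1, 9.35 and 9.37 with siRNA 2, and 8.19 and 8.25 with control siRNA. Its 3 groups were separate, with siRNA 2 highest and control lowest. The difference from control was 0.93 ± 0.07 with siRNA 1 and 1.14 ± 0.07 with siRNA 2, or 1.91-fold and 2.20-fold. KLHL15, the CUL3 adaptor, had signals of 6.82 and 7.01 with siRNA 1, 6.78 and 6.93 with siRNA 2, and 5.95 and 6.11 with control siRNA. The arrays of siRNA 1 and siRNA 2 overlapped, and the lowest of them was 0.67 above the higher control array, the smallest such gap of the 6. The difference was 0.88 ± 0.10 with siRNA 1 and 0.82 ± 0.10 with siRNA 2, or 1.84-fold and 1.77-fold.

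**Figure D1:**
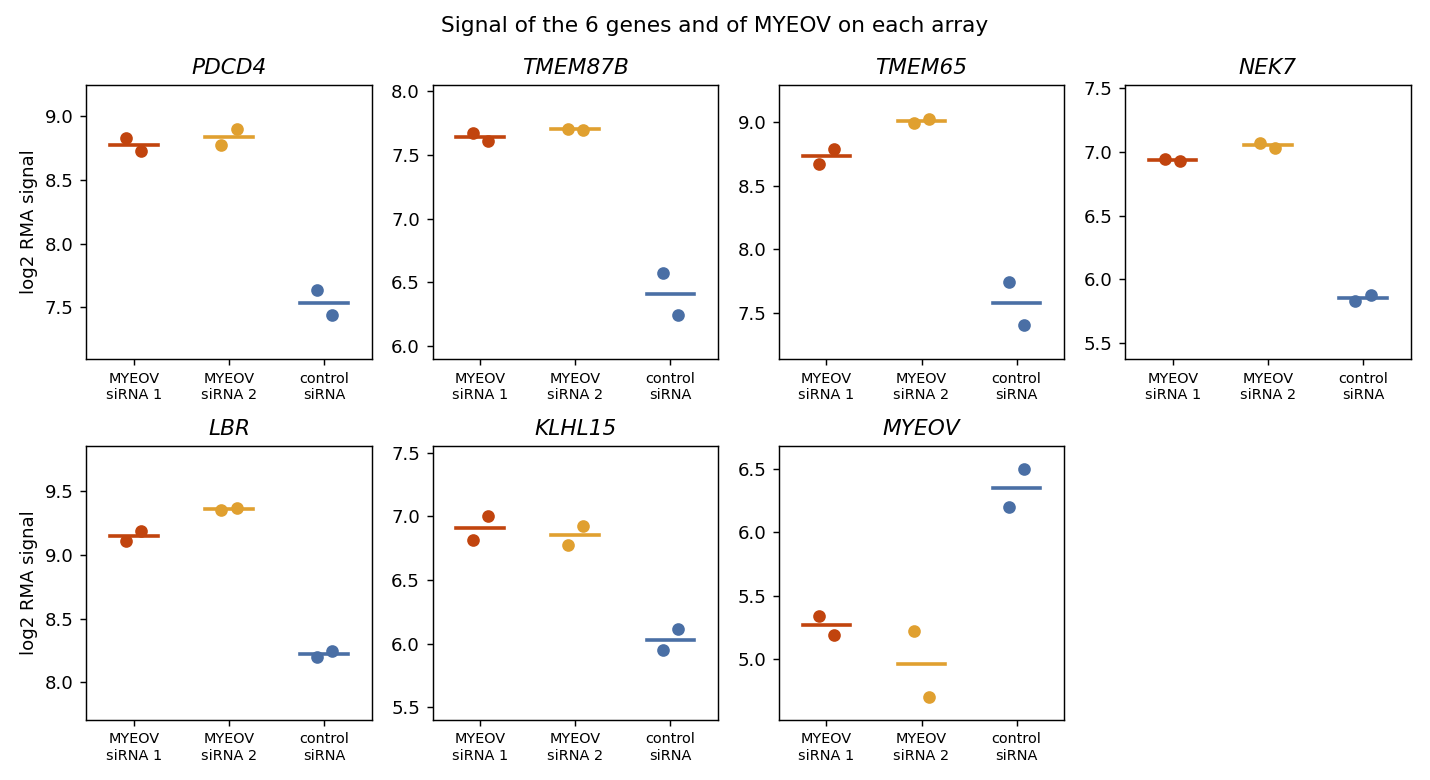
Log2 RMA signal of PDCD4, TMEM87B, TMEM65, NEK7, LBR, KLHL15 and MYEOV on each array (points, 2 per group) with the group mean (line), every panel spanning the same number of log2 units. In the 6 panels other than MYEOV all 4 arrays of the MYEOV siRNAs lie above both control arrays, by between 0.67 and 1.09, and MYEOV runs the other way.

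All 6 genes had every siRNA array above both control arrays, which was also true of 12.0% of the 7442 genes tested. All 6 were called higher with siRNA 1 and with siRNA 2 by limma at a Benjamini-Hochberg adjusted p under 0.05, against 2.28% of all genes tested for siRNA 1 and 2.59% for siRNA 2. The choice of the genes fixes these counts. The median difference of the 6 genes was 1.12 with siRNA 1 and 1.25 with siRNA 2, whereas the median of all genes tested was -0.003 and 0.0005. Both comparisons use the same 2 control arrays, so a control array that reads low raises both values of a gene together. Control replicate 2 was the lower control array for 3 of the 6 genes, PDCD4, TMEM87B and TMEM65, and these 3 had the widest control spread. Without that array TMEM87B was 1.07 higher with siRNA 1 and 1.12 with siRNA 2, and TMEM65 was 0.99 and 1.26 higher. Without control replicate 1, TMEM87B was 1.40 and 1.46 higher, and TMEM65 1.33 and 1.61. With any single array left out, every one of the 6 genes had a difference of at least 0.74 from control with each siRNA. The choice of the genes fixes the sign of these values.

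Genes chosen because both MYEOV siRNAs lie far above control are unlikely to differ widely between these siRNAs, so this contrast is also given as a description. For LBR, siRNA 1 minus siRNA 2 was -0.21, with 95% limits of -0.37 and -0.05. TMEM65 had a difference of -0.28 (-0.55 to -0.01). Both intervals, which are not adjusted for the number of genes, leave out 0. NEK7 differed by -0.12 (-0.27 to 0.04), PDCD4 by -0.06 (-0.28 to 0.16), TMEM87B by -0.06 (-0.32 to 0.20) and KLHL15 by 0.06 (-0.18 to 0.29). By limma, 0 of the 6 genes were called in this contrast, beside 9.15% of all genes tested that were called in either direction. At an unadjusted p under 0.05 were 2 of the 6, beside 1756 of all 7442 genes tested. The choice of the genes bears on these counts, and nothing is read from them. The intervals allow siRNA differences of up to 0.55 for TMEM65 and 0.37 for LBR, so similar action of the siRNAs is not shown. MYEOV differed by 0.30 (-0.12 to 0.72) between 2 groups that are both below the filter value. Of the 6 genes, 5 had the higher mean with siRNA 2. In PDCD4 and KLHL15 the sign of the difference turned when a single array was left out, with values between -0.13 and 0.01 for PDCD4 and between -0.04 and 0.15 for KLHL15.

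**Figure D2:**
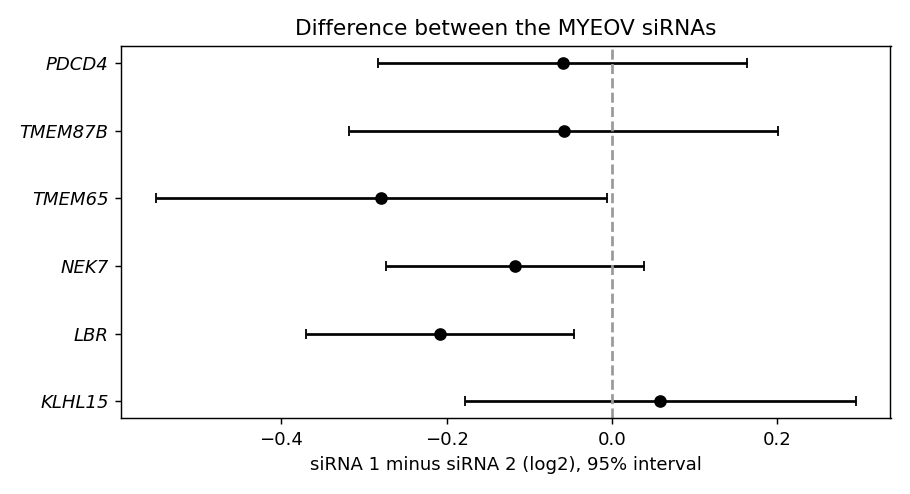
Difference between MYEOV siRNA 1 and MYEOV siRNA 2 (log2, points) with its 95% interval (bars, from limma, not adjusted over genes) for each of the 6 genes. The intervals of LBR, -0.37 to -0.05, and TMEM65, -0.55 to -0.01, lie below 0, and those of PDCD4, TMEM87B, NEK7 and KLHL15 include 0.

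The 6 genes stand near the top of the 75 genes called higher with both siRNAs. When those are ordered by the smaller of the 2 differences, PDCD4, TMEM87B and TMEM65 take places 2 to 4, NEK7 place 6, LBR place 9 and KLHL15 place 11. The other genes in the first 11 places are ACLY, an enzyme that makes acetyl-CoA for lipid synthesis, MIS18A, which licenses centromeres, RASEF, a Rab-type GTPase, CENPK, a kinetochore subunit, and CHMP4C, an ESCRT-III subunit. The selection thus had no sharp limit: CHMP4C, just above KLHL15 and not among the 6, had 0.83 with siRNA 1 and 0.94 with siRNA 2, and ANKFY1, an endosomal protein just below it, had 0.85 and 0.82. ITIH2, PGM2L1, RIMOC1, CCDC68 and BRWD3 follow, with 0.77, 0.74, 0.71, 0.69 and 0.67 as the smaller difference.

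**Figure D3:**
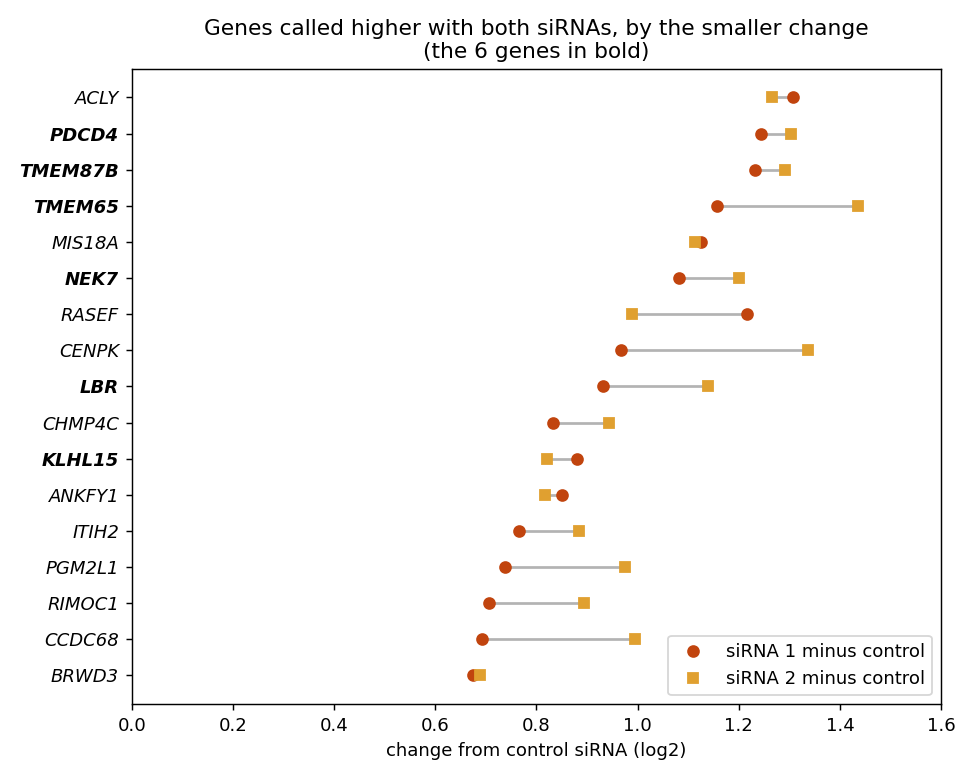
Difference from control siRNA (log2) with MYEOV siRNA 1 (circles) and MYEOV siRNA 2 (squares) for the first 17 genes called higher with both siRNAs, ordered downwards by the smaller difference, with the 6 genes described here in bold. Both differences use the same 2 control arrays, and the smaller one is 1.27 for ACLY at the top and 0.67 for BRWD3 at the bottom.

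Likeness was measured as the root mean square difference, over the 6 arrays, between a gene and the mean of the 6 genes after the mean of the control arrays was subtracted from each. Among the 6, NEK7 lay closest to their mean, at 0.05, and KLHL15 farthest, at 0.27. The 8 other genes nearest to the mean were MIS18A at 0.10, CENPK at 0.11, ACLY at 0.15, RASEF at 0.16, and CHMP4C, ANKFY1, PGM2L1 and CCDC68 between 0.26 and 0.28. MIS18A had signals of 7.92 and 8.17 with siRNA 1, 8.06 and 8.01 with siRNA 2, and 6.89 and 6.95 with control siRNA. CENPK had 7.83 and 7.83 with siRNA 1, 8.21 and 8.19 with siRNA 2, and 6.90 and 6.83 with control siRNA. The means of MIS18A with either siRNA were 0.01 apart, while both siRNA 2 arrays of CENPK were above both siRNA 1 arrays. The difference of CENPK was -0.37. These 8 genes were picked on the same 6 arrays, so their values are a description.

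Promoter sequences from RefSeq, 250 bases before to 50 bases after the annotated start on GRCh38.p14, were at hand and are shown for 4 of the 6 genes, because these genes share a direction and a size of difference while their promoters are unlike in composition. Capitals mark matches, on either strand, to 9 short motifs: the GC box GGGCGG, the CCAAT box, the TATA box TATAAA, the cAMP response element TGACGTCA, the AP-1 site TGANTCA, the E-box CACGTG, the NRF1 site GCGCNTGCG, the ETS site CCGGAAG and the ZBTB33 site CTCGCGAG.
PDCD4, chr10:110871678-110871977, plus strand: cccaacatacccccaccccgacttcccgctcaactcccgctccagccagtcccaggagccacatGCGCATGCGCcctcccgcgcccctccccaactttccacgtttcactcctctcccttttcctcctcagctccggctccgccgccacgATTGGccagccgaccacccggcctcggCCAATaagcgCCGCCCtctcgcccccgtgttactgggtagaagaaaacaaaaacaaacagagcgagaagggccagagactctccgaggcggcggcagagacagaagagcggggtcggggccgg
TMEM87B, chr2:112055019-112055318, plus strand: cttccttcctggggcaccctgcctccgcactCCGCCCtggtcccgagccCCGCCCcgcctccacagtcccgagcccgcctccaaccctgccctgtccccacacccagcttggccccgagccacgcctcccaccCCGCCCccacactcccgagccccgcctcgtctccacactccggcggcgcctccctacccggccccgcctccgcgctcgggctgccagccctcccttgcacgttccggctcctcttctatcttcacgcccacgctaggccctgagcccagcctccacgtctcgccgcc
LBR, chr1:225428772-225429071, minus strand: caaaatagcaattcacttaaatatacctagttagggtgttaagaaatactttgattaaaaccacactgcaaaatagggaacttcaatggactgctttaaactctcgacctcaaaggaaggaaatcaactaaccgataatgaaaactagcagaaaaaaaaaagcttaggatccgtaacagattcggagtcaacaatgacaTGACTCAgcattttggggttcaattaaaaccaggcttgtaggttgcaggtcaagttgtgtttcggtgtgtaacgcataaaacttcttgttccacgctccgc
KLHL15, chrX:24027137-24027436, minus strand: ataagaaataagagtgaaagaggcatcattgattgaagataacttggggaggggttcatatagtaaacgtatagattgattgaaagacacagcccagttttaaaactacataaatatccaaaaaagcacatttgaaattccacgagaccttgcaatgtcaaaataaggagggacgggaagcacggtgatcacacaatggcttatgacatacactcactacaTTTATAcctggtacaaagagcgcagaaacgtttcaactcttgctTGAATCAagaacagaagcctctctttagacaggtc

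PDCD4 and TMEM87B have promoters rich in G and C, 65.7% and 74.7%, while those of LBR and KLHL15 hold 38.3% and 38.7%. Among 35116 RefSeq promoters of the same length the median was 58.7% and the quartiles were 47.0% and 68.0%. No motif was found in more than 2 of the 4 promoters. Positions count from the annotated start. PDCD4 has a GC box at -63 to -58, CCAAT boxes at -100 to -96 and -73 to -69, and an NRF1 site whose matches on the 2 strands overlap. TMEM87B has 3 GC boxes. LBR has an AP-1 site at -51 to -45. KLHL15 has a match to TATAAA at -29 to -24 only on the strand opposite to the one shown, which reads TTTATA there. Its match to the AP-1 letters, at 15 to 21, reads TGAATCA, with A where the motif allows any base. The GC box is held by 45.0% of all 35116 promoters, the CCAAT box by 34.6%, the TATA box by 11.5%, the AP-1 site by 7.71% and the NRF1 site by 7.47%. The cAMP response element, the E-box, the ETS site and the ZBTB33 site, held by 1.85%, 7.26%, 10.3% and 1.02%, had no match in these 4 windows. A match is a run of letters and not a measured site.

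PDCD4 acts on translation initiation. Of 10 tested genes of eIF4F and translation initiation, 0 were called higher with either siRNA, against 2.28% and 2.59% of all genes tested, and 1 was called lower with each, against 2.38% for siRNA 1 and 4.23% for siRNA 2. By limma, 2 genes per siRNA had an unadjusted p under 0.05, beside 1430 of all 7442 genes tested with siRNA 1 and 1649 with siRNA 2. EIF4EBP2, a repressor of the cap-binding protein, fell with siRNA 1, at -0.55 (limma, Benjamini-Hochberg adjusted p = 0.00837), and had 0.16 with siRNA 2. The cap-binding protein EIF4E fell with siRNA 2, at -0.31 (limma, adjusted p = 0.0446), and had -0.18 with siRNA 1. EIF4A3, a helicase of the eIF4A family, had -0.18 and -0.04 and was not called. Among 12 tested genes of PDCD4 turnover, which include the mTOR pathway and BTRC, limma called 0 with either siRNA, with 1 and 2 at an unadjusted p under 0.05. Of 9 tested AP-1 subunits, ATF2 fell with siRNA 1, at -0.48 (limma, adjusted p = 0.0270), and 0 were called with siRNA 2, where 0 also had an unadjusted p under 0.05. With 2.28% to 4.23% of all genes called per siRNA and direction, nothing is read from counts of 0 or 1 in these lists.

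The microRNA miR-21 is shown because PDCD4 is its best-known target. Its mature 5p strand, chr17:59841273-59841294 on the plus strand of GRCh38.p14 in RefSeq, is written with its seed, bases 2 to 8, in capitals.
hsa-miR-21-5p: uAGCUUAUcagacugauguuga

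The row of MIR21, which does not measure the mature strand, had signals of 7.23 and 7.53 with siRNA 1, 6.78 and 6.96 with siRNA 2, and 7.01 and 7.23 with control siRNA. The siRNA 1 arrays overlapped the control arrays and both siRNA 2 arrays lay below them. MIR21 was not called, at 0.26 with siRNA 1 and -0.25 with siRNA 2 (limma, Benjamini-Hochberg adjusted p = 0.336 and 0.321). VMP1, the gene that hosts it, had 0.07 and 0.09. PDCD4 was 1.24 and 1.30 higher, and whether miR-21 bears on this was not tested. Among the 9 tested genes of 18 listed as other miR-21 targets, limma called 0 with siRNA 1. With siRNA 2 limma called NFIB higher and FBXO11, MARCKS and SPRY2 lower, beside 2.59% of all genes called higher and 4.23% lower. At an unadjusted p under 0.05 were 4 of the 9 with siRNA 1 and 5 with siRNA 2. Of all 7442 genes tested, 1430 and 1649 had such a p. The protein kinase C substrate MARCKS had signals of 8.88 and 8.92 with siRNA 1, 7.77 and 7.74 with siRNA 2, and 8.66 and 8.61 with control siRNA. Its difference was 0.27 with siRNA 1 and -0.88 with siRNA 2 (limma, adjusted p = 0.0762 and 0.000620). The ubiquitin ligase subunit FBXO11 had 0.06 and -0.78, the growth factor feedback inhibitor SPRY2 had -0.34 and -0.60, and the transcription factor NFIB, chosen after its values were seen, had -0.18 and 0.37. The median of the 9 was 0.17 with siRNA 1 and 0.04 with siRNA 2.

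Of 9 tested NEK kinases and mitotic partners, limma called 0 with either siRNA, with 0 and 2 at an unadjusted p under 0.05. Of all 7442 genes tested, 1430 with siRNA 1 and 1649 with siRNA 2 had such a p. With 2.28% to 4.23% of all genes called per siRNA and direction, 0 of 9 lies near the background. NEK6, the closest relative of NEK7, had -0.01 with siRNA 1 and -0.15 with siRNA 2, and NEK9, the kinase that activates both, had 0.10 and 0.18. Of 15 inflammasome genes listed, 5 had a named row and 3 passed the filter, PYCARD, IL18 and GSDMD, and limma called 0 of them, with 0 and 1 at an unadjusted p under 0.05. NLRP3 itself was not analysed here.

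Around LBR, 18 genes of the nuclear lamina and inner nuclear membrane were tested, with 0 called by limma for siRNA 1 and 1 in each direction for siRNA 2. Of all genes tested, 2.28% were called higher and 2.38% lower with siRNA 1, and 2.59% and 4.23% with siRNA 2. At an unadjusted p under 0.05 were 6 of the 18 with siRNA 1 and 7 with siRNA 2, beside 1430 and 1649 of all 7442 genes. SUN2, which links the lamina to the cytoskeleton, rose with siRNA 2, at 0.40 (limma, Benjamini-Hochberg adjusted p = 0.0449), and had 0.33 with siRNA 1. NEMP1, a nuclear envelope protein, fell with siRNA 2, at -0.52 (limma, adjusted p = 0.00565), and had -0.17 with siRNA 1. The lamin LMNB1, to which LBR binds, had -0.26 and -0.20, and the HP1 gene CBX5 had 0.08 and 0.13. Of 4 tested genes of cholesterol synthesis from lanosterol on, limma called 0, with 0 and 1 at an unadjusted p under 0.05. TM7SF2, which encodes the other sterol reductase of this step, was below the filter, at 5.37 and 5.27 with siRNA 1, 5.22 and 5.33 with siRNA 2, and 5.16 and 5.30 with control siRNA.

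KLHL20, an adaptor of CUL3 like KLHL15, rose with both siRNAs. It was the 1 gene called higher with both of 127 tested in all the lists, a share near the 1.01% of all genes tested that were so called. Its signals were 8.25 and 8.23 with siRNA 1, 8.31 and 8.41 with siRNA 2, and 7.91 and 7.77 with control siRNA. All 4 siRNA arrays of KLHL20 were above both control arrays, as was true of 12.0% of all genes tested. Its differences were 0.40 ± 0.08 and 0.52 ± 0.08 (limma, Benjamini-Hochberg adjusted p = 0.0391 and 0.0109). Its call with siRNA 1 was lost without any one of the 6 arrays, with adjusted p up to 0.205 over all alternatives. Its call with siRNA 2 was lost without siRNA 2 replicate 2 or control replicate 2, with adjusted p up to 0.0935. Arrays of the siRNA that is not compared enter such a call only through the shared estimate of spread. Among the other 16 tested genes of the CUL3 ligase and Kelch adaptors, KLHL21 was called lower with siRNA 2, at -0.35 (limma, adjusted p = 0.0498), with -0.01 with siRNA 1. With siRNA 2, 4.23% of all genes tested were called lower. CUL3 had -0.04 and 0.05. PP2A subunits and CtIP, which include known KLHL15 substrates, were not analysed here.

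TMEM87A, the paralog of TMEM87B, had signals of 9.31 and 9.19 with siRNA 1, 9.51 and 9.50 with siRNA 2, and 9.04 and 9.16 with control siRNA. All 4 siRNA arrays of TMEM87A were above both control arrays, as was true of 12.0% of all genes tested. It rose with siRNA 2, at 0.41 ± 0.08 (limma, Benjamini-Hochberg adjusted p = 0.0258), and had 0.15 ± 0.08 with siRNA 1 (adjusted p = 0.342). The call with siRNA 2 was lost without either siRNA 2 array or either control array, with adjusted p up to 0.171. Of the other 6 GOLD-domain seven-pass membrane proteins, TMEM181 rose with siRNA 1, at 0.44, and fell with siRNA 2, at -0.48 (limma, adjusted p = 0.0235 and 0.0121). GPR180 fell with siRNA 1, at -1.43 (limma, adjusted p = 0.000833), and had 0.24 with siRNA 2. Per siRNA, limma called 1 of these 7 genes, TMEM87A included, higher and 1 lower. The shares of all genes tested were 2.28% and 2.38% with siRNA 1, and 2.59% and 4.23% with siRNA 2. Of 18 Golgi retrograde tethers, limma called 0. At an unadjusted p under 0.05 were 2 with siRNA 1 and 3 with siRNA 2, beside 1430 and 1649 of all 7442 genes.

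Around TMEM65, 11 genes of mitochondrial calcium transport and the inner membrane were tested. The inner membrane protease subunit AFG3L2 fell with siRNA 1, with 8.73 and 8.62 against 9.66 and 9.71 in the control arrays, at -1.01 (limma, Benjamini-Hochberg adjusted p = 0.00143), and had 0.05 with siRNA 2. With siRNA 2, 0 of the 11 were called and 0 had an unadjusted p under 0.05, beside 1649 of all 7442 genes with such a p. Limma called 2.38% of all genes tested lower with siRNA 1, and 2.59% higher and 4.23% lower with siRNA 2. Over all 13 lists, 127 of 193 distinct genes were tested, of which 1.57% were called higher and 3.15% lower with siRNA 1, and 3.15% higher and 5.51% lower with siRNA 2. These shares lie near those of all genes tested. Their median was 0.01 with siRNA 1 and 0.02 with siRNA 2. Of the 17 calls of list genes, counted per siRNA, 5 held without any one array: AFG3L2 and GPR180 with siRNA 1, and FBXO11, MARCKS and NEMP1 with siRNA 2. All of these but NEMP1, 4 in all, also held with every other alternative. NEMP1 had a limma adjusted p up to 0.066. The calls of EIF4E, KLHL21 and NFIB with siRNA 2 were lost without any one of the 6 arrays, and that of SUN2 without any array but control replicate 2. With siRNA 1, ATF2 and TMEM181 were lost without either siRNA 1 array or either control array, and EIF4EBP2 without either siRNA 1 array or control replicate 2. With siRNA 2, SPRY2 was lost without siRNA 2 replicate 2 or control replicate 1, and TMEM181 without siRNA 2 replicate 1 or either control array.

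**Figure D4:**
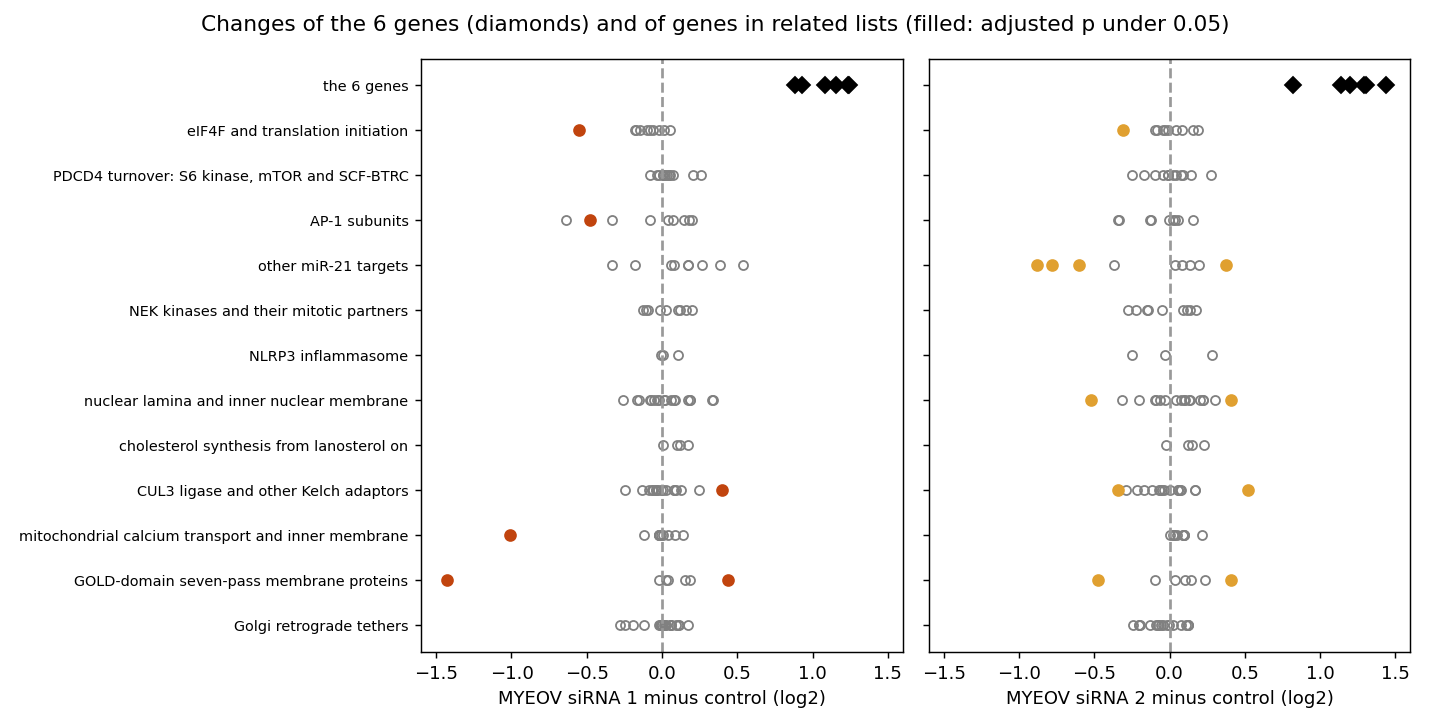
Difference from control siRNA (log2) with MYEOV siRNA 1 (left) and MYEOV siRNA 2 (right) for the 6 genes (diamonds) and for each tested gene of 12 related lists (circles, filled where limma's adjusted p is under 0.05). The 6 genes lie between 0.88 and 1.24 with siRNA 1 and between 0.82 and 1.44 with siRNA 2, and the medians of all list genes are 0.01 and 0.02.

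The 6 genes lie on 5 chromosomes, with PDCD4 on chromosome 10, TMEM87B on 2, TMEM65 on 8, NEK7 and LBR on 1 and KLHL15 on X. For each, the 3 nearest genes with a named row on either side in RefSeq (GRCh38.p14, used here for gene order) were examined, 36 in all, of which 22 were tested. Their median difference was 0.04 with siRNA 1 and 0.01 with siRNA 2. Limma called 2 higher and 0 lower with siRNA 1, and 1 higher and 1 lower with siRNA 2. Of all genes tested, 2.28% were called higher and 2.38% lower with siRNA 1, and 2.59% and 4.23% with siRNA 2. ZC3H6, a zinc finger gene 156 kb from TMEM87B, rose with siRNA 1, at 0.61 (limma, Benjamini-Hochberg adjusted p = 0.00735), and had 0.30 with siRNA 2. ANXA13, an annexin 569 kb from TMEM65, rose with siRNA 1, at 0.83 (limma, adjusted p = 0.0135), and had 0.33 with siRNA 2. DENND1B, an activator of RAB35 at 375 kb from NEK7, rose with siRNA 2, at 0.46 (limma, adjusted p = 0.0323), and had 0.20 with siRNA 1. At 75.8 kb from KLHL15, APOO, a subunit of the mitochondrial MICOS complex, fell with siRNA 2, at -1.19 (limma, adjusted p = 0.000595), and had 0.06 with siRNA 1. BBIP1, whose annotated span overlaps that of PDCD4, had 0.11 and 0.23 and was not called (adjusted p = 0.555 and 0.169). Of these 4 calls, that of APOO held without any one array. ZC3H6 was lost without either siRNA 1 array or either control array, ANXA13 without siRNA 1 replicate 2 or control replicate 1, and DENND1B without any array but siRNA 2 replicate 2.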

How the data were processed

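Gene expression was measured on 6 Affymetrix whole-transcript arrays, 2 per group. The values the authors deposited are log2 signals. The submitters' processing notes give RMA as the method, without its version. Array medians lay between 4.08 and 4.10. Of 53617 rows, the platform annotation gave 16098 a single gene symbol, 0 several and 37519 none. All 16098 gene identifiers were found in the RefSeq table, and the row with the highest mean stood for each of the 779 genes with more than 1. Genes at or above the median of named genes were fitted with limma 3.58.1 (lmFit, eBayes) in R 4.3.3 over all 6 arrays and 3 groups, with Benjamini-Hochberg adjustment over 7442 genes and a threshold of 0.05. The fit has 3 residual and 4.09 prior degrees of freedom. An array count this low limits the precision. The scripts were also tested on simulated data.

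The 6 genes, the 13 gene lists and the comparisons were chosen with earlier results of these data known. Named genes were MYEOV, the 6 genes, preset paralogs and partners, the called genes of each list (up to 3 per siRNA by size), called neighbours, the 8 genes most like the 6 and those next to KLHL15 in order. A symbol without a value was not analysed here. The alternatives changed the filter, the rows used, the normalization, the arrays fitted, the variance prior and array weights, added the replicate number as a block, or left out each array. Leaving out an array of a group that is not compared changes only the shared estimate of spread and its degrees of freedom.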

Additional observations from a re-analysis of the deposited data

Results flagged for a closer look

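Between the MYEOV siRNAs, 14 named genes other than the 6 differed at limma's Benjamini-Hochberg adjusted p under 0.05. They were named because a siRNA called them against control or, for CENPK, for likeness to the 6 genes on the same arrays, so the size of their differences is a description. Each value that follows is the difference between siRNA 1 and siRNA 2, on the log2 scale.

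CENPK was higher than control with both siRNAs and differed by -0.37. Its choice for likeness to the 6 genes, 5 of which had the higher mean with siRNA 2, bears on this direction, and nothing is read from it. Lower with siRNA 1 than with siRNA 2 were also GPR180 at -1.66, AFG3L2 at -1.06, EIF4EBP2 at -0.71, ATF2 at -0.64 and NFIB at -0.55. Higher with siRNA 1 than with siRNA 2 were the KLHL15 neighbour APOO at 1.24, MARCKS at 1.15, TMEM181 at 0.92 and FBXO11 at 0.84. Smaller differences in that direction were those of the TMEM65 neighbour ANXA13 at 0.49, NEMP1 at 0.35, KLHL21 at 0.34 and the TMEM87B neighbour ZC3H6 at 0.31. With 2 arrays per group, no single array could be examined as an outlier.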

How the results depend on the processing

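The 12 differences of the 6 genes from control were rerun with rows averaged, quantile normalization, median centring and each array left out. All signs held. The choice of the genes fixes this for left-out arrays, because every siRNA array lies above both control arrays, so it is a description. Leaving out single arrays gave, for siRNA 1 and siRNA 2, 1.14 to 1.34 and 1.20 to 1.40 for PDCD4, 1.07 to 1.40 and 1.12 to 1.46 for TMEM87B, 0.99 to 1.33 and 1.26 to 1.61 for TMEM65, 1.06 to 1.11 and 1.18 to 1.23 for NEK7, 0.89 to 0.97 and 1.11 to 1.16 for LBR, and 0.79 to 0.97 and 0.74 to 0.90 for KLHL15. For siRNA 1 minus siRNA 2 the ranges were -0.13 to 0.01 for PDCD4, -0.04 to 0.15 for KLHL15 and -0.25 to -0.17 for LBR. The sign turned for PDCD4 without siRNA 2 replicate 2 (0.0065), and for KLHL15 without siRNA 1 replicate 2 (-0.0359) or siRNA 2 replicate 1 (-0.0163). LBR passed the threshold with the 75th percentile filter, where fewer genes are tested, at -0.21 (limma, Benjamini-Hochberg adjusted p = 0.04998, over alternatives 0.04998 to 0.390).

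Counts of called genes moved more. With no filter, where more genes are tested, limma called 39 for siRNA 1, 139 for siRNA 2 and 195 between the siRNAs, against 347, 508 and 681, and without single arrays the counts were 58 to 235, 207 to 331 and 226 to 618. For siRNA 1 they were 97 and 58 without siRNA 1 replicates 1 and 2, and 93 and 87 without control replicates 1 and 2. For siRNA 2 each of the 6 arrays lowered the count by over 1.5 times, and between the siRNAs each siRNA 1 and siRNA 2 array did. With only the 2 groups compared, which lowers the degrees of freedom, siRNA 2 had 331. The siRNA 1 arrays enter siRNA 2 minus control only through the shared estimate of spread. Among list genes the calls numbered 6 and 11, with no filter 2 and 2, with only the 2 groups compared 7 for siRNA 2, and without single arrays 2 to 5 and 4 to 7. Among neighbours they numbered 2 and 2, with no filter or the 75th percentile filter 0 and 1, with only the 2 groups compared 1 for siRNA 2, and without single arrays 0 to 2 and 1 to 2. The neighbours ZC3H6, ANXA13 and DENND1B, with every signal below 7.36, were not tested with the 75th percentile filter, so their calls could not hold there. Same-numbered arrays deviated together across genes (r = 0.251, 0.265 and 0.205 for the 3 pairings of groups), but nothing in the labels says what a number marks. With the replicate block, 420, 702 and 922 genes were called, with 10 list genes for siRNA 1 and 5 neighbours for siRNA 2. The cause of the changes with the block was not tested.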
